A study of Mus musculus with 9 samples.

Results

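The pacemaker channels, voltage-gated calcium channels and sodium-calcium exchangers, 9 genes in all, were followed in cultured mouse adipose cells that beat on their own. They are Hcn2, Hcn3 and Hcn4 (pacemaker channels), Cacna1c and Cacna1d (L-type calcium channels), Cacna1g and Cacna1h (T-type calcium channels), and Slc8a1 and Slc8a3 (sodium-calcium exchangers). They were chosen by name, and each was read from the array row, or transcript cluster, that is annotated with its symbol alone. All 9 were found, among 19938 genes with such a row and 33323 transcript clusters in all. Slc8a1 has 2 such rows, and the one with the higher mean over the day 28 arrays was used.

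The cells were the stromal vascular fraction (SVF) of subcutaneous fat, the mixed cells left when adipocytes are removed, from C57BL6/J mice of 10 weeks, and all groups grew in the same minimal medium without any inducing treatment. The beating group (n = 4, day 28) held beating colonies picked by hand, and the non-beating group (n = 4, day 28) held the other cells of the dish. A further sample was 1 pool of 6 round cells of day 14, which has no replicate and therefore no test. Nothing in the labels says that the replicates of a group came from separate animals, so the p-values measure only how far these samples spread, which may be technical.

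HCN channels open when the membrane becomes more negative and are made easier to open by cyclic AMP; their inward current drives the slow depolarisation of sinoatrial node cells towards the next beat. L-type calcium channels carry the calcium that triggers contraction in heart muscle, and T-type channels open at more negative potentials and add to the pacemaker depolarisation. Sodium-calcium exchangers move calcium out of the cell after each beat and carry inward current while they do so.

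None of the 9 genes passed the test between the beating and non-beating groups. The test was limma's two-sided one, passed at a p below 0.05 after Benjamini-Hochberg adjustment across every cluster, and 6.16% of all clusters passed it. At an unadjusted p under 0.05, 1 gene was higher (Slc8a3) and 2 were lower (Cacna1g and Slc8a1), and 20.9% of all clusters met that level, 8.89% higher and 12.0% lower. None passed the methods' t-test after the same adjustment, which 2.6% of clusters passed. At the threshold of the methods, after a 1.5-fold prefilter that kept 2 of the 9 genes (0 called), 2.77% of the clusters kept were called. The median difference, beating minus non-beating, was -0.031 on the log2 scale for the 9 genes and 0.0073 for all clusters. The differences ran from -0.68 for Slc8a1 to 0.22 for Slc8a3.

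The 9 genes had low to middling signals on these arrays. Their mean log2 signals over the 8 day 28 arrays ran from 2.55 for Hcn4 to 4.12 for Cacna1g, where the array medians lay between 3.08 and 3.17, and 6 of the 9 lay below the median cluster; Slc8a1, Cacna1c and Cacna1g lay above it. The test was passed in either direction by 0.804% of clusters below the median level and by 11.5% of those above it. A signal on this scale includes background, so a small difference in a low signal does not bound the difference in transcript amount. The intervals below are 95% intervals of the difference in log2 signal from the limma fit, without adjustment for the number of clusters.

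**Figure D1:**
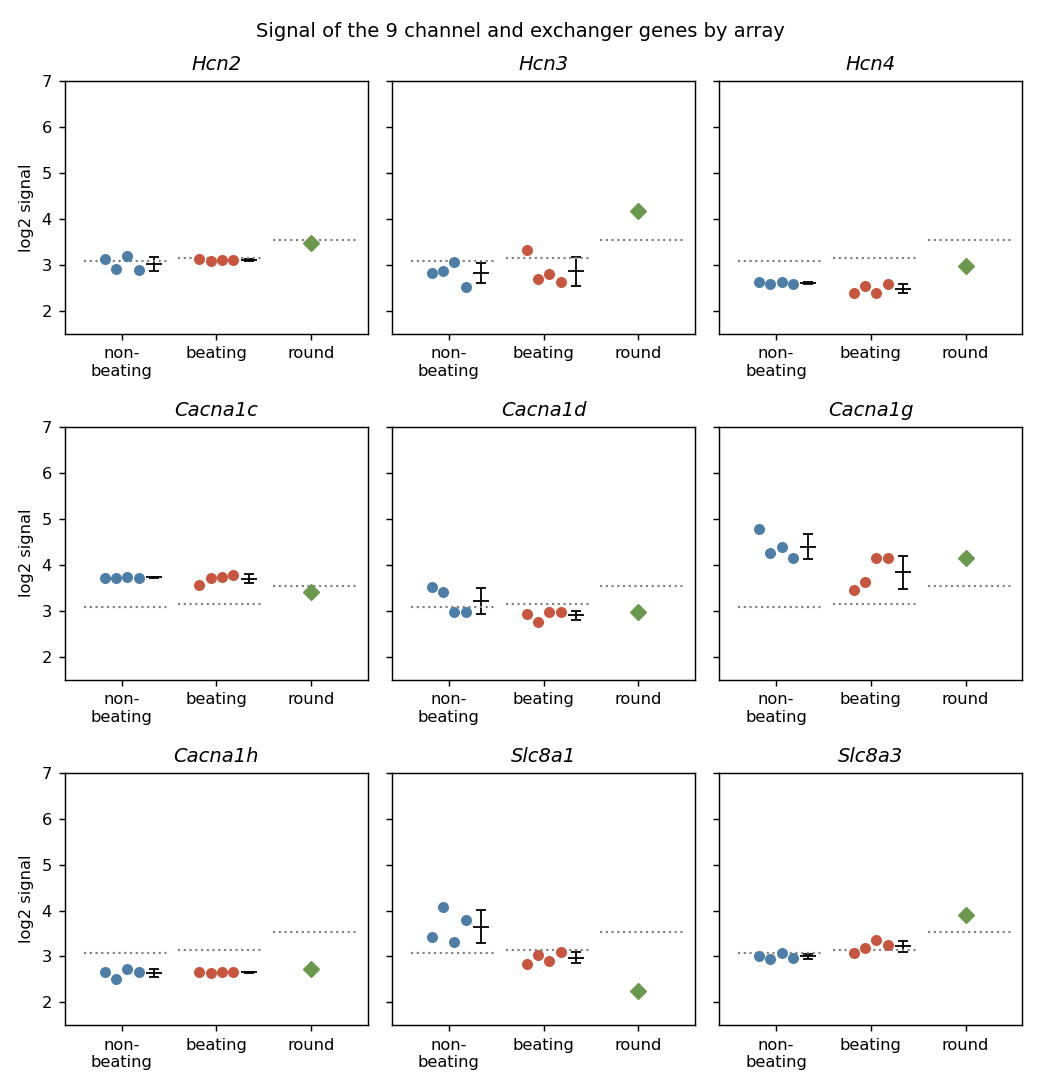
Log2 signal (vertical axis) of each of the 9 genes on every array, in 4 non-beating, 4 beating and 1 round sample (horizontal axis); points are arrays, black marks the mean and SD of 4, and dotted lines the mean of the array medians. Only Slc8a1 has all 4 beating arrays below all 4 non-beating arrays, and no gene has all beating arrays above.

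Hcn4 encodes the main pacemaker channel of the sinoatrial node. Its promoter window, 250 bases before to 50 after the RefSeq transcript start (GRCm38.p6, chr9:58822699-58822998, plus strand), is shown because the gene defines the pacemaker current. It is printed 5′ to 3′ in lower case, and it has no E-box (CANNTG, the motif bound by myogenic factors, which reads alike on both strands), so no letter stands in capitals.
Hcn4: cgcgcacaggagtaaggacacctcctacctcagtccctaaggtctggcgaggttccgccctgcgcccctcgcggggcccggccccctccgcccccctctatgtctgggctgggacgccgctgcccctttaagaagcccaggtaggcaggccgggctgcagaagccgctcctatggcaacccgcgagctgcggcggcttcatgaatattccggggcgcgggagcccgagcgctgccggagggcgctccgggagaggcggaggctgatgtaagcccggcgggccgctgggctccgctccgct

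The log2 signal of Hcn4 (Entrez Gene 330953) was 2.62, 2.59, 2.62 and 2.59 in the non-beating samples and 2.39, 2.55, 2.39 and 2.59 in the beating samples. The groups met at 1 value, 2.59, which non-beating replicates 2 and 4 and beating replicate 4 share exactly, and all 8 values lay below the median of their own array. The means were 2.61 ± 0.017 and 2.48 ± 0.10 (SD, n = 4 each), a difference of -0.13 (interval -0.28 to 0.021, limma adjusted p = 0.314). No beating value exceeded the lowest non-beating value. By quantitative PCR, a different measure of RNA, the study reports more Hcn4 and Hcn2 in the beating cells. The gap between that assay and the array signal was not tested.

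Hcn2 (Entrez Gene 15166), which makes a faster pacemaker channel found in the heart and brain, was at 3.12, 2.91, 3.19 and 2.88 in the non-beating and 3.14, 3.08, 3.11 and 3.11 in the beating samples. The beating values lay within the non-beating range. The difference was 0.081 (interval -0.11 to 0.27, limma adjusted p = 0.641), and it ran from 0.021 with quantile normalisation to 0.14 without non-beating replicate 3.

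Hcn3 (Entrez Gene 15168), a slower channel of the same family, was at 2.81, 2.87, 3.07 and 2.53 in the non-beating and 3.32, 2.69, 2.81 and 2.63 in the beating samples. Beating replicate 1 was the highest of the 8, and the other 3 beating samples lay inside the non-beating range. The difference was 0.044 (interval -0.36 to 0.44, limma adjusted p = 0.921), and it turned to -0.11 without beating replicate 1 and to -0.054 without non-beating replicate 4. It also turned under median centring and quantile normalisation, to -0.014 and -0.0085. Of the 9 intervals, that of Hcn3 reached highest, to 1.36-fold.

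Cacna1c (Entrez Gene 12288) encodes the pore of the L-type channel of heart muscle, the main trigger of cardiac calcium release. Its log2 signal was 3.72, 3.72, 3.73 and 3.72 in the non-beating samples and 3.55, 3.71, 3.73 and 3.77 in the beating samples. The groups overlapped, and all 8 values lay above the median of their array. The means were 3.72 ± 0.0037 and 3.69 ± 0.099 (SD, n = 4 each), a difference of -0.031 (interval -0.18 to 0.11, limma adjusted p = 0.83). This small difference turned to 0.017 without beating replicate 1. On the scale of folds of signal the interval ran from 0.886 to 1.08.

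Cacna1d (Entrez Gene 12289), the L-type channel that opens at more negative potentials and serves the sinoatrial node, was at 3.51, 3.40, 2.96 and 2.96 in the non-beating and 2.92, 2.74, 2.96 and 2.96 in the beating samples. Non-beating replicates 1 and 2 stood above the other 6 samples, and the groups met at 2.96. The difference was -0.31 (interval -0.64 to 0.012, limma adjusted p = 0.256).

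Cacna1g (Entrez Gene 12291), a T-type pore subunit of the node and conduction system, was at 4.78, 4.26, 4.39 and 4.14 in the non-beating and 3.45, 3.62, 4.14 and 4.14 in the beating samples. No beating sample exceeded any non-beating sample, and the groups met at 4.14. The means were 4.39 ± 0.28 and 3.84 ± 0.36 (SD, n = 4 each), a difference of -0.55 (interval -1.02 to -0.091, unadjusted p = 0.0247, limma adjusted p = 0.162). Cacna1h (Entrez Gene 58226), the other T-type subunit of the heart, was at 2.66, 2.52, 2.72 and 2.66 against 2.66, 2.64, 2.66 and 2.66. The difference of Cacna1h was 0.016 (interval -0.12 to 0.15, limma adjusted p = 0.915). It turned to -0.042 after median centring, to -0.033 after quantile normalisation and to -0.025 without non-beating replicate 2.

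Slc8a1 encodes the sodium-calcium exchanger of the heart and had the largest difference of the 9 genes. Its promoter window (GRCm38.p6, chr17:81738338-81738637, minus strand) is shown for that reason, with its only E-box in capitals.
Slc8a1: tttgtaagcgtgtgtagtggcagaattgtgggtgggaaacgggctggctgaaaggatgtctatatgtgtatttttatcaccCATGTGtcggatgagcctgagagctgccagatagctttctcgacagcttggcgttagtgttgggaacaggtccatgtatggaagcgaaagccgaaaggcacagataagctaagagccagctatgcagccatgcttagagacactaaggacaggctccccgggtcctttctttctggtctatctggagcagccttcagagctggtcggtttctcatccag

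The log2 signal of Slc8a1 (Entrez Gene 20541) was 3.41, 4.08, 3.31 and 3.78 in the non-beating samples and 2.84, 3.04, 2.90 and 3.10 in the beating samples. All 4 beating samples lay below all 4 non-beating samples, a pattern shown by 8.24% of all clusters; the opposite one, shown by 5.98%, was found in none of the 9 genes. The means were 3.65 ± 0.35 and 2.97 ± 0.12 (SD, n = 4 each), a difference of -0.68 (interval -1.06 to -0.29, unadjusted p = 0.0038), which is 1.6-fold less signal in the beating group. The limma adjusted p was 0.0561, just outside the threshold. It crossed to 0.0421 with each array centred on its median, to 0.0434 with quantile normalisation and to 0.0318 with dim clusters left out, where fewer clusters are adjusted for. Over all 16 alternatives that adjust over all clusters tested, it lay between 0.0318 and 0.14 and the direction was lower throughout. The second row of Slc8a1 was at 3.43 ± 0.23 and 3.14 ± 0.070, a difference of -0.29 with overlapping groups (limma adjusted p = 0.191).

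Slc8a3 (Entrez Gene 110893), the exchanger of skeletal muscle and brain, was at 3.01, 2.94, 3.08 and 2.97 in the non-beating and 3.08, 3.18, 3.36 and 3.26 in the beating samples. No beating sample lay below any non-beating sample, and the groups met at 3.08, shared exactly by non-beating replicate 3 and beating replicate 1. The means were 3.0 ± 0.062 and 3.22 ± 0.12 (SD, n = 4 each), a difference of 0.22 (interval 0.051 to 0.39, unadjusted p = 0.0171, limma adjusted p = 0.132). The adjusted p lay between 0.0775 and 0.278 over 15 alternatives. The signs of Slc8a1 and Slc8a3 were opposite, and neither passed the test over all clusters.

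Of the 9 genes, 7 held exactly the same value on at least 2 arrays. Cacna1d stood at 2.96 and Cacna1h at 2.66 on 5 arrays each, and Cacna1g at 4.14 on 4 arrays, the round pool among them for Cacna1d and Cacna1g. Identical values were common in the table: 49.9% of all clusters had them on at least 2 arrays, and 28.8% on at least 3. On at least 3 arrays they stood in 38.4% of clusters below the median level and in 19.1% of those above it, and in 5 of the 9 genes. For Hcn4, Cacna1d, Cacna1g and Slc8a3 the shared value was the point where the groups met (4 of the 9 genes). The share of all clusters whose groups meet in this way was not counted. The part of such shared values in the spread was not tested.

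Among other genes of the pathway, Cacna1s, Cacnb1, Cacng1 and Ryr1 were higher in the beating group. In all, 69 other genes of the pathway in 7 lists were read from the same fit, and of the 63 analysed 17 were higher in the beating group, 3 were lower and 43 did not pass. The background was 2.82% of clusters higher and 3.34% lower. The median difference over the 63 genes was 0.015.

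Among 6 other pore subunits of voltage-gated calcium channels, Cacna1s, the L-type channel and voltage sensor of skeletal muscle, rose and the other 5 did not pass. Its promoter window (GRCm38.p6, chr1:136052561-136052860, plus strand) is shown as that of the pore subunit that rose, with 2 E-boxes in capitals.
Cacna1s: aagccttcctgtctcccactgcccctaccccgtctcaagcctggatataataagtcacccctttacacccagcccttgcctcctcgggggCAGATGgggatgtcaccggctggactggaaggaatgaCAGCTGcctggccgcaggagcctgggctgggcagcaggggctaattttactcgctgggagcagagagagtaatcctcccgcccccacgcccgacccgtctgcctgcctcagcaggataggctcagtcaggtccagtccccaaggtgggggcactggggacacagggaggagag

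Cacna1s was at 3.38, 2.93, 3.38 and 3.26 in the non-beating and 6.77, 6.74, 6.26 and 6.57 in the beating samples. Every beating sample lay far above every non-beating sample. The signal was 10.2-fold higher (log2 difference 3.35, interval 3.01 to 3.68, limma adjusted p = 8.78e-06). The other 5 pore subunits, Cacna1a, Cacna1b, Cacna1e, Cacna1f and Cacna1i, belong mainly to neurons and the retina, and their differences ran from -0.21 for Cacna1a to 0.059 for Cacna1b.

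Of 10 analysed auxiliary subunits, Cacna2d1, Cacnb1 and Cacng1 rose, Cacng7 fell and 6 did not pass. Cacnb1, the beta subunit of the skeletal muscle channel, was at 3.91, 3.56, 3.17 and 3.46 in the non-beating and 5.49, 5.54, 5.32 and 5.42 in the beating samples, 3.78-fold higher (limma adjusted p = 0.000234). Cacng1, the gamma subunit of skeletal muscle, was 3.55-fold higher, at 5.97 ± 0.51 against 4.14 ± 0.072 (SD, n = 4 each, limma adjusted p = 0.00369). Cacna2d1, an alpha2delta subunit shared by heart and skeletal muscle, rose by 1.36 on the log2 scale, from 7.40 ± 0.31 to 8.75 ± 0.17 (limma adjusted p = 0.00299). Cacnb2, the main beta subunit of the heart, was at 2.26 and 2.25 (limma adjusted p = 0.963). Cacng7, a gamma subunit known from the brain, was 2.83-fold lower (limma adjusted p = 0.0177), and this call was lost without non-beating replicates 1, 2 or 3 and without beating replicate 2 (adjusted p up to 0.0605), with the replicate block and with the methods' t-test after adjustment.

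**Figure D2:**
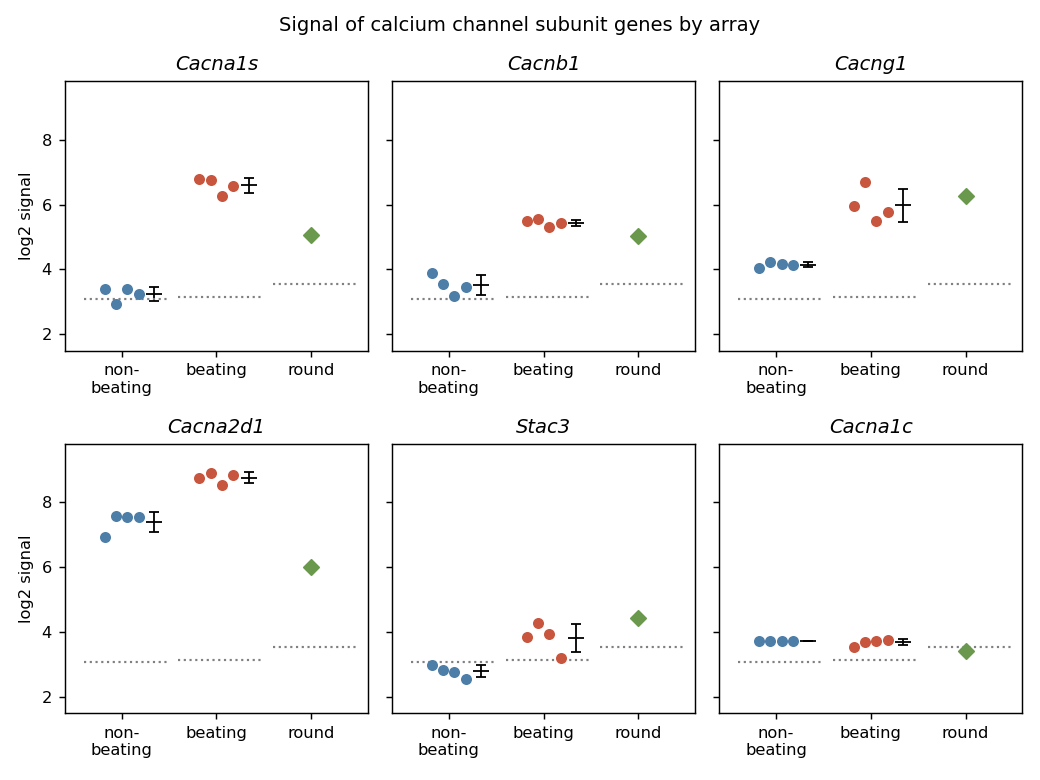
Log2 signal (vertical axis) of 6 calcium channel genes on every array, in 4 non-beating, 4 beating and 1 round sample (horizontal axis); points are arrays, black marks the mean and SD of 4, and dotted lines the mean of the array medians. Cacna1s, Cacnb1, Cacng1, Cacna2d1 and Stac3 have all beating arrays above all non-beating arrays, and Cacna1c does not.

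Of 6 analysed proteins that regulate muscle calcium channels, Stac3 and Rrad rose and 4 did not pass. Stac3, an adaptor needed for the skeletal muscle channel to work, was 2.04-fold higher (limma adjusted p = 0.0308), a call lost on leaving out any 1 array other than beating replicate 4 (adjusted p up to 0.0859) and with the methods' t-test after adjustment. Rrad, a small GTPase that restrains L-type channels, rose by 1.64 on the log2 scale (limma adjusted p = 0.000335).

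In the other HCN and exchanger family members, 0 of 7 rose and 1 fell. Slc24a3, a potassium-dependent sodium-calcium exchanger, was 1.77-fold lower, at 2.99 ± 0.12 against 3.81 ± 0.21 (SD, n = 4 each, limma adjusted p = 0.00638). Slc8a2, the exchanger of the brain, was at 2.49 ± 0.090 in non-beating and 2.68 ± 0.17 in beating samples (limma adjusted p = 0.314).

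Of 11 partners of HCN channels and enzymes of cyclic AMP, Cav3, the caveolin of muscle, rose by 1.26 on the log2 scale (limma adjusted p = 0.00579) and 10 did not pass. Of 9 sinoatrial node factors and related channels, Shox2, a homeobox factor of the node, was 1.57-fold lower, at 3.83 ± 0.17 against 4.49 ± 0.25 (SD, n = 4 each, limma adjusted p = 0.0327), and 8 did not pass. The call of Shox2 was lost without non-beating replicates 1, 2 or 3, without beating replicates 2, 3 or 4 (adjusted p up to 0.0934) and with the methods' t-test after adjustment. Tbx3 and Isl1, other transcription factors of the node, differed by 0.12 and -0.086 (limma adjusted p = 0.767 and 0.817).

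**Figure D3:**
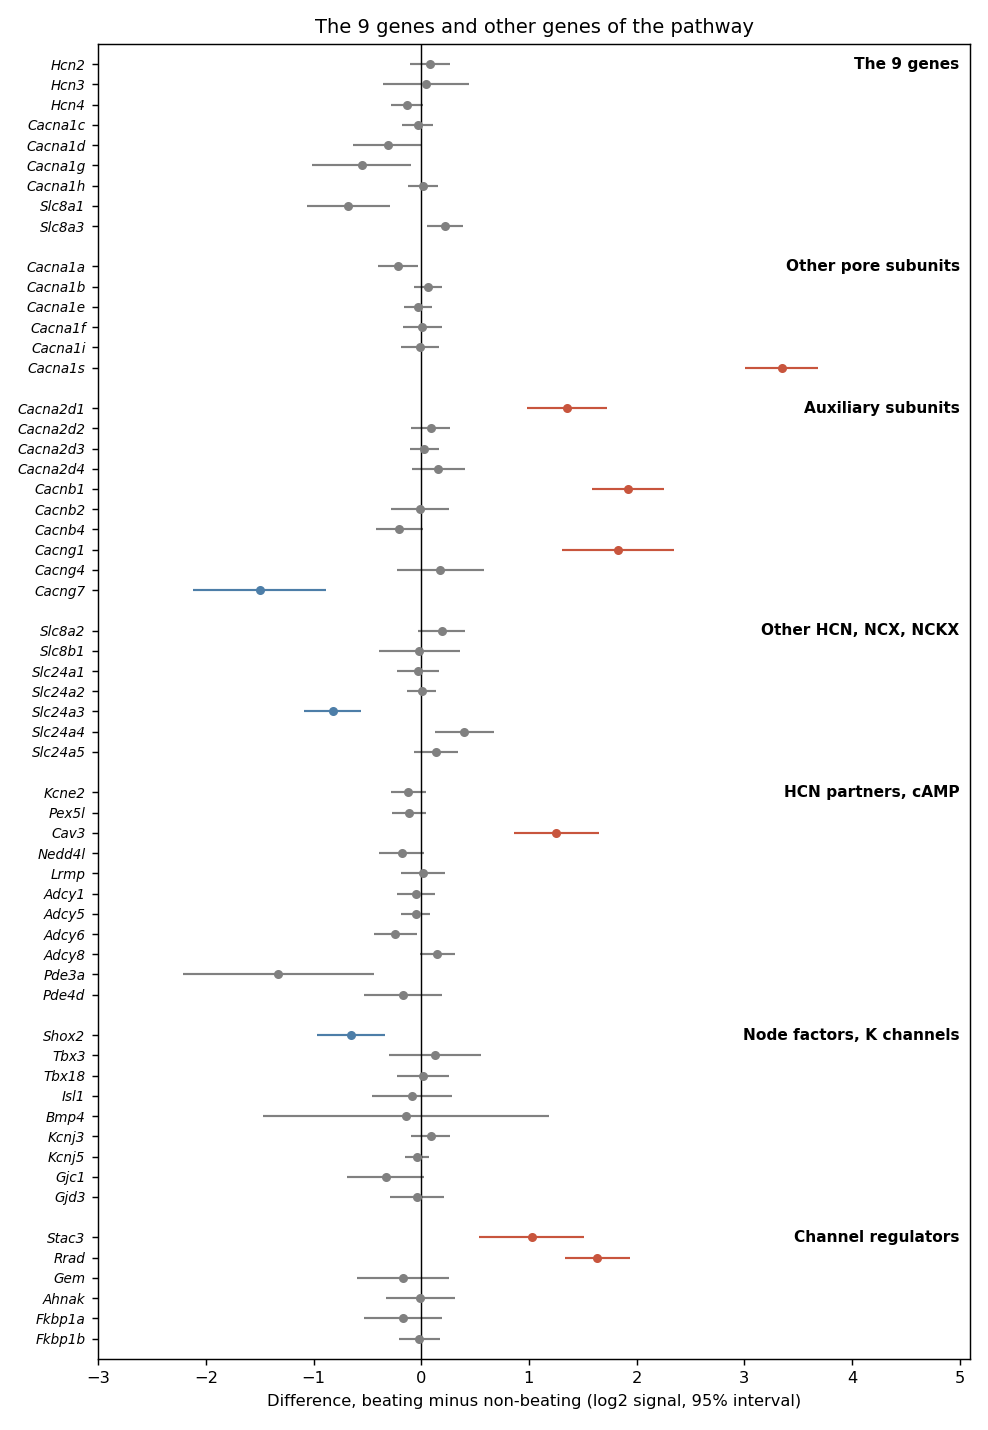
Difference between beating and non-beating means (horizontal axis, log2 signal, with its 95% interval from limma) for the 9 genes and 49 other analysed genes in 6 pathway lists (vertical axis). Red marks genes higher and blue genes lower at an adjusted p under 0.05, grey the rest; all 9 genes are grey, and Cacna1s lies furthest to the right at 3.35.

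Of 14 analysed genes of calcium release, uptake and extrusion, 10 were higher, none was lower and 4 did not pass. Ryr1, the release channel of skeletal muscle, was 5.56-fold higher, at 5.49 ± 0.12 against 3.01 ± 0.084 (SD, n = 4 each, limma adjusted p = 1.26e-06). Ryr2, the release channel of the heart, was at 2.46 ± 0.11 and 2.45 ± 0.0083 (interval of the difference -0.14 to 0.17, limma adjusted p = 0.948). Atp2a1, the fast muscle calcium pump, was 13.7-fold higher (limma adjusted p = 3.91e-05), and Ryr3 rose by 0.67 on the log2 scale (limma adjusted p = 0.00986). Casq1, Casq2, Trdn, Jph1, Jph2 and Atp2a2, which buffer, anchor or pump calcium at the reticulum, rose by 0.83 for Jph2 to 6.62 for Trdn on the log2 scale. Of these, Casq2, Atp2a2 and Jph2 are forms also found in the heart. They were 81.9-fold, 1.98-fold and 1.78-fold higher (limma adjusted p = 9.0e-08, 0.00467 and 0.00484). The value of Trdn is that of its brightest row, and the mean of its 19 rows differed by 4.09. Atp2b1, a calcium pump of the outer membrane, rose by 0.41 (limma adjusted p = 0.0342), a call lost with 9 of 16 alternatives, 6 of which leave out 1 array (adjusted p up to 0.102). Pln, which restrains the pump of the heart, was at 3.20 ± 0.49 and 2.69 ± 0.13 (limma adjusted p = 0.248).

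Markers of cell types were read beside these values. Of 12 skeletal muscle markers, which include Cacna1s and Ryr1, 11 were higher in the beating group, and their summed log2 signal was 91.4 to 98.8 in beating against 41.5 to 45.4 in non-beating samples. Of 12 genes listed as markers of heart muscle, Myh6 and Myl4 were higher, Tbx5 was lower and 9 did not pass. Their sum was 46.5 to 49.1 against 41.4 to 42.3. Myh6 was at 2.77 against 2.36, and all 8 values lay below the median of their array. Without Myl4, the marker with the largest difference, the sum of the other 11 was 35.2 to 37.7 against 34.9 to 36.2, and the groups overlapped. This list does not hold Tnnt2, Actc1 or Myl2, which the study reports by PCR in the beating cells, with protein staining for Tnnt2 and Myl2. The counts of both muscle lists therefore depend on the genes listed. Of 8 fibroblast and matrix markers 3 (Pdgfra, Thy1 and Dcn) and of 7 adipocyte markers 3 (Adipoq, Lpl and Pparg) were lower in the beating group. The summed signal of the first list was 60.7 to 64.3 against 66.4 to 71.2, and the mean signal of the adipocyte list was at most 4.61 against at least 5.14. Of 7 smooth muscle markers Smtn was higher and 6 did not pass, and no marker passed of 7 of macrophages, 6 of endothelium and 6 of Schwann cells and neurons. All 7 macrophage markers had a lower mean in the beating group (Cd68 by -2.72, limma adjusted p = 0.0574), with a sum of 21.5 to 30.3 against 29.7 to 40.5. In the non-beating group all 7 were highest in replicates 2 and 4, where the row used for Slc8a1 was highest too. The second row of Slc8a1 was instead highest in replicates 2 and 3, at 3.60 and 3.55. Replicates 2 and 4 were also the highest 2 non-beating samples for 4 of the 12 skeletal muscle markers. Cacna1g, Shox2 and Slc24a3 were highest in non-beating replicate 1, at 4.78, 4.71 and 4.12. Among fibroblast and matrix markers, Col1a1, Col1a2, Col3a1, Pdgfra, Thy1, Dcn and Lum were also highest in that replicate, and Postn was not. Among adipocyte markers, Adipoq, Lep, Cidec and Lpl were highest there too, and Fabp4, Plin1 and Pparg were not. The part of the listed cell types in the values of Slc8a1, Cacna1g, Shox2 and Slc24a3 was not tested. In bulk samples fewer cells of a type and less RNA per cell cannot be told apart.

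Of the 9 genes, 6 have a RefSeq promoter window, with 9 windows in all. An E-box stood in 7 of them and in 72.3% of 32851 windows of all genes. The M-CAT motif CATTCC, read on both strands, was in none of the 9 windows, in 1 place in that of Cacna1s and in 14.7% of all windows. The MEF2 motif was in none of these 10 windows and in 1.86% of all. The GC content was 71.7% for Hcn4, 72.3% for Hcn2, 50.7% for Slc8a1 and 63.0% for Cacna1s, against a median of 52.7%.

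In the round pool, the signal of 5 genes (Hcn2, Hcn3, Hcn4, Cacna1h and Slc8a3) lay above all 8 day 28 arrays and that of 2 (Cacna1c and Slc8a1) below them. As deposited, the round pool was above the other 8 arrays in 46.4% of all clusters and below in 24.4%, and its array median was 3.54. After median centring, 2 genes lay above and 4 below, against 25.1% and 47.7% of all clusters, and after quantile normalisation also 2 and 4, against 35.6% and 29.2%.

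Hcn3 was at 4.18 in the round pool, 1.36 above the non-beating mean, and stayed above all other arrays after median centring (0.91) and quantile normalisation (1.33). Slc8a3 was at 3.91, 0.91 above the non-beating mean, and also stayed above under both scalings (0.46 and 0.66). Slc8a1 was at 2.25, or -1.40 from the non-beating mean, and stayed below all others at -1.85 and -1.65, as did Cacna1c at 3.42 (-0.31 as deposited and -0.76 under both). For Hcn4, at 2.99, the round value went from 0.38 above the non-beating mean to -0.076 after median centring and -0.12 after quantile normalisation. Cacna1h, at 2.73, turned from 0.092 to -0.36 and -0.35. Hcn2 moved from 0.46 to 0.0045 and -0.010. Cacna1d and Cacna1g lay within the range of the other arrays as deposited, at their shared values. With median centring, Cacna1d and Cacna1h lay below all other arrays, and Cacna1g stayed within their range. Cacna1s was at 5.07 in the round pool, between the groups of day 28.

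**Figure D4:**
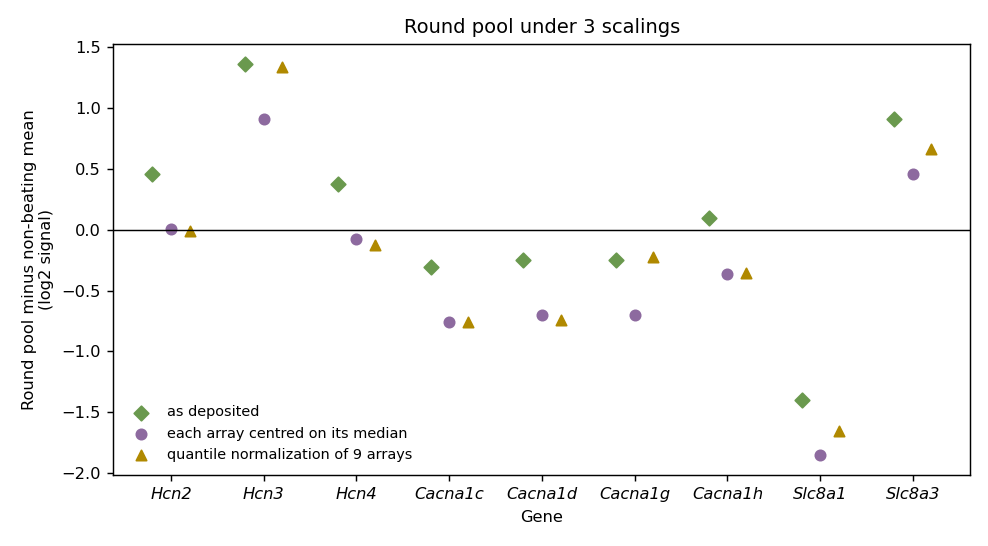
Difference between the round pool and the mean of 4 non-beating arrays (vertical axis, log2 signal) for the 9 genes (horizontal axis), as deposited, with each array centred on its median, and after quantile normalisation of the 9 arrays. Hcn3 and Slc8a3 lie above 0 and Slc8a1 and Cacna1c below 0 under all 3 scalings. Hcn4 and Cacna1h change sign under both other scalings, and Hcn2 reaches just below 0 under quantile normalisation only.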

How the data were processed

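RNA was amplified (Ovation Pico WTA) and hybridised to 1-colour Affymetrix Mouse Gene 1.0 ST arrays. The authors deposited 1 table of log2 signal, already normalised, for 33323 transcript clusters on 9 arrays; the summary method is not given in the sources used here, and precision is limited by how many arrays there are. A lone symbol is annotated to 21789 clusters, more than 1 symbol to 1621 and no symbol to 9913, and 21698 names were brought up to date by gene number.

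Beating and non-beating samples (n = 4 each) were compared with limma 3.58.1 (lmFit and eBayes, R 4.3.3) on these values as deposited, without a block, with Benjamini-Hochberg adjustment over all clusters, and the round pool was only described. The fit was tested on simulated data. The 9 genes and all lists were chosen with earlier results of these data known. All 9 genes were named, list genes past an adjusted p of 0.05, and Ryr2, Pln and Slc8a2; other genes that did not pass were named after their values were seen. Alternatives were another scaling (median centring, quantile), a filter on dim clusters, other variance models, the methods' t-test, the replicate block, averaged rows and each array left out. Promoter windows come from RefSeq (GRCm38.p6). Sums of marker lists without the marker that differed most were added after seeing the data.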

Additional observations from a re-analysis of the deposited data

Results flagged for a closer look

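In 18 groups of 4 arrays (9 genes, both day 28 groups), 2 had a sample whose gap to its nearest neighbour, as a share of the group's range, was above the limit for an outlier. Chance marks about 1 in 20 groups of untied values, but where 3 of 4 values are identical the share is 1.0 whatever the fourth is, so both are set by shared values. For Cacna1c, non-beating replicate 3 was at 3.73 and the other 3 shared 3.72 exactly, a share of 1.0. For Cacna1h, beating replicate 2 was at 2.64 and the other 3 shared 2.66 exactly, again a share of 1.0. Both distances are small on the log2 scale.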

How the results depend on the processing

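No setting called any of the 9 genes higher. With median centring, quantile normalisation or dim clusters left out, 1 was called lower (Slc8a1) against 0 as reported; the filter kept only Cacna1c, Cacna1g and Slc8a1 of the 9. Among other pathway genes, the methods' t-test at its own threshold called 9 higher and 0 lower against 17 and 3, and after Benjamini-Hochberg adjustment 1 lower. Leaving out each array in turn gave 15 to 16 higher and 1 to 3 lower, with 1 lower without non-beating replicate 1, 2 or 3 or beating replicate 2. In the round pool, 2 genes lay above and 4 below all others under both scalings, against 5 and 2. Differences near 0 changed sign: Hcn3 to -0.014 (median centring), -0.0085 (quantile), -0.064 (array weights), -0.054 (without non-beating replicate 4) and -0.11 (without beating replicate 1); Cacna1c to 0.017 (without beating replicate 1); Cacna1h to -0.042 and -0.033 under the scalings and -0.025 without non-beating replicate 2; Ryr2 to -0.046 and -0.035 under the scalings and -0.0056 and -0.025 without beating replicates 1 and 3. Leaving out 1 array gave -0.11 to 0.13 for Hcn3, -0.058 to 0.017 for Cacna1c, -0.025 to 0.042 for Cacna1h and -0.025 to 0.063 for Ryr2. The cause was not tested. No pairing by replicate number was seen in the values (correlation of same-numbered samples -0.012 to 0.028, none matching its own number best). This cannot show that same-numbered samples came from different dishes. With the replicate block, 0 of the 9 genes were called in either direction, and 16 other pathway genes were higher and 2 lower.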
